A study of Mus musculus with 4 samples.

Results

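The miR-199 and miR-214 microRNAs of cultured mouse synovial fibroblasts are described here, with their levels in cells of arthritic TghuTNF mice and of healthy littermates. Members are all rows named miR-199a, miR-199b or miR-214 once the arm mark and copy number are removed, which gives 5 of the 590 miRNAs listed in any library. They are mmu-miR-199a-5p, mmu-miR-199a-3p, mmu-miR-199b*, mmu-miR-214 and mmu-miR-214*, given without the mouse prefix from here on, and the star marks the arm of a hairpin first described as the minor one. TghuTNF mice express human TNF from a transgene and serve as a model of chronic arthritis, and wild-type (WT) littermates without the transgene are the healthy counterpart. Both groups are CBA/J * C57BL/6/J mice of 8 weeks, and fibroblasts were grown from the hind joints to passage 4, when by the labels most cells carried CD90.2 and few carried the macrophage marker Mac1. Each genotype has 2 biological replicates per the series design. The labels do not say whether a culture came from 1 animal or several, nor which promoter drives the transgene.

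In vertebrates a miRNA hairpin is cut into a 5p and a 3p arm, and either arm can be loaded into an Argonaute protein, where bases 2 to 8, the seed, select target mRNAs. miR-199a and miR-214 are typical of mesenchymal cells: their shared host, the long non-coding RNA Dnm3os, is transcribed opposite to the dynamin gene Dnm3, is needed for normal skeletal growth in the mouse, and is activated by the transcription factor Twist1. miR-214 is known to repress the chromatin regulator Ezh2, and miR-199a-5p to repress caveolin-1 in fibrotic lung fibroblasts.

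The members come from 4 loci in 3 dynamin genes, and only some rows belong to 1 locus. In GRCm38 the hairpin Mir199a-2 lies at chr1:162217814-162217923 and Mir214 at chr1:162223368-162223477, both on the plus strand in an exon of Dnm3os and inside an intron of Dnm3 on the opposite strand, with 5444 bases between them. Mir199a-1 lies at chr9:21496495-21496564 on the minus strand, opposite an intron of Dnm2, and Mir199b at chr2:32318460-32318569 on the plus strand, opposite an intron of Dnm1. The mature sequences of 4 members are in RefSeq (GRCm38.p6). They are printed 5′ to 3′ with the seed in capitals, to show which of the printed sequences share a seed.
miR-199a-5p: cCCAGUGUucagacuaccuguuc
miR-199a-3p: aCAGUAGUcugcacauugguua
miR-199b-3p: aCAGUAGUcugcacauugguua
miR-214*: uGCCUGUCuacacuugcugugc
miR-214: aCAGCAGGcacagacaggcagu

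miR-199a-3p and miR-199b-3p are the same molecule, so the miR-199a-3p row sums 3 hairpins. The miR-199a-5p row sums 2 in perfect matches, and with mismatches allowed it can also take reads of Mir199b. miR-214 and miR-214* each come from Mir214 alone, and no other of the 1679 mature miRNA names in RefSeq lies within 2 mismatches of either (the nearest differ by 7 bases, allowing an offset of up to 2 bases). The seed of miR-214 is shared with miR-761, which is not listed in any library. The miR-199b* row is named without a mature sequence. The stretch of the Mir199b hairpin that aligns with miR-199a-5p differs from it at 1 base, C10U counted from the 5′ end of miR-199a-5p, and keeps the same seed. The pair is printed with that base in capitals, since it is the only letter that separates both rows.
miR-199a-5p: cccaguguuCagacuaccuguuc
Mir199b hairpin, aligned stretch: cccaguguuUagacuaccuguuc

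The Mir214 hairpin shows where the arms of miR-214 sit. Its arms are printed in capitals, miR-214* first and miR-214 after the loop.
Mir214: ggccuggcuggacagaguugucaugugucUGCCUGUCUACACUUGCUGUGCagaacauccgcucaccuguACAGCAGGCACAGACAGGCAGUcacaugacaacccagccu

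Reads were matched to mature miRNAs with at most 2 mismatches, and the total matches per library were 27362819 and 22959408 for TghuTNF and 16680860 and 26542371 for WT. Perfect matches made up 70.5% and 66.0% of these in TghuTNF replicates 1 and 2, and 69.6% and 70.5% in WT. TghuTNF replicate 2 stood apart in 2-mismatch matches, with 11.7% against 8.21% to 8.73% in the other 3 libraries. Replicates of a genotype did not hold the same counts (chi-square per degree of freedom of 425 in TghuTNF and 420.5 in WT). Levels are CPM, counts per 1000000 matches after TMM scaling, and all mature sequences here are 22 or 23 bases, so levels are set side by side without a length correction. Fewer cells making a miRNA and less of it per cell cannot be told apart in these bulk cultures.

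miR-214, the 3p arm of the Dnm3os hairpin Mir214, was lower in TghuTNF fibroblasts, while the other arm of the same hairpin showed no detectable difference. miR-214 had 117 and 99.5 CPM in the TghuTNF libraries, against 256 and 156 CPM in the WT libraries. Both TghuTNF libraries lay below both WT libraries, as non-overlapping groups were found for 60.6% of the 442 tested miRNAs in either direction. The WT pair was spread more widely than the TghuTNF pair. The log2 fold change was -0.93 ± 0.26 (SE), a 1.90-fold lower level (108 ± 12.4 CPM in TghuTNF and 206 ± 70.5 CPM in WT; SD, n = 2 each; edgeR adjusted p = 0.037). Of the 5 members 1 was called lower and 0 higher in all matches, where 8.60% of the 442 tested miRNAs were lower and 4.75% higher.

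The fall of miR-214 was also seen in reads without mismatches. Its perfect matches, 1285 and 926 in TghuTNF and 1982 and 1932 in WT, gave 66.0 and 61.1 CPM of perfect matches in TghuTNF, against 172 and 103 CPM in WT. The log2 fold change was -1.11 ± 0.28, 2.17-fold lower (edgeR adjusted p = 0.031 over 380 miRNAs tested in perfect matches). WT replicate 1 carried much of the size: without it the change was -0.53 in all matches (edgeR adjusted p = 0.45) and -0.68 in perfect matches (0.37). The call in all matches also ended with upper-quartile scaling (adjusted p = 0.061), limma-voom (0.054), a mean CPM of at least 100 (0.0999) and matches with at most 1 mismatch (0.059).

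**Figure D1:**
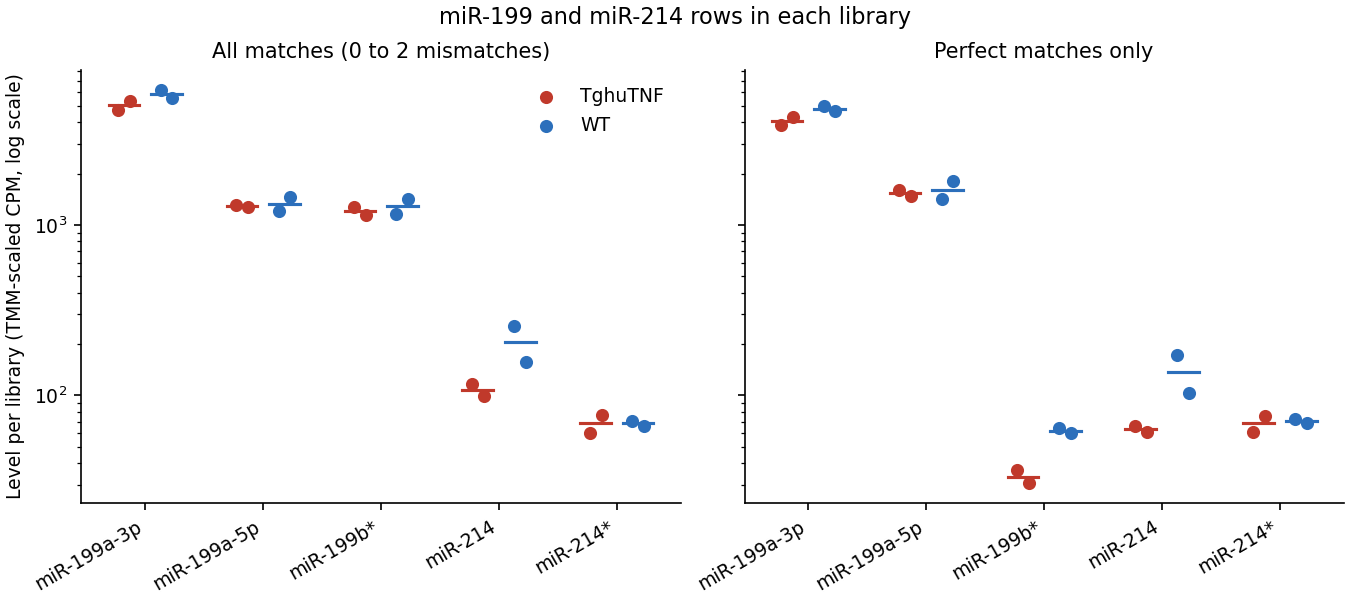
Level of each member in each library on a log scale (TMM-scaled CPM; points are libraries, bars the mean of 2), for all matches on the left and perfect matches on the right, TghuTNF in red and WT in blue. miR-214 is lower in both TghuTNF libraries in both panels, and miR-199b* separates by genotype in the perfect matches. Genotypes did not overlap for 60.6% of miRNAs tested in all matches and 60.3% in perfect matches.

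miR-214* is the 5p arm, named as the minor product of the hairpin. It had 60.5 and 76.9 CPM in TghuTNF, against 71.0 and 66.3 CPM in WT. The WT values lay between the TghuTNF values. The log2 fold change was 0.0011 ± 0.23 (95% interval -0.50 to 0.50, edgeR adjusted p = 0.9985). With 2 libraries a group, changes within that interval are not excluded in either direction. In perfect matches the log2 fold change was -0.051 ± 0.23. The sign turned with other scalings in all matches and without a filter in perfect matches, so miR-214* has no direction here.

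The ratio of the arms follows from both values and does not depend on library scaling. There were 1.94 and 1.29 matches of miR-214 per match of miR-214* in the TghuTNF libraries, against 3.60 and 2.35 in the WT libraries. miR-214 made up 65.9% and 56.4% of the matches of its hairpin in TghuTNF and 78.3% and 70.2% in WT. The ratio was lower in both TghuTNF libraries than in both WT libraries, and with perfect matches it was 1.08 and 0.802 in TghuTNF, against 2.36 and 1.49 in WT. In TghuTNF replicate 2 the star arm therefore held more perfect matches than its partner, though fewer matches in all (1733 against 2242). A larger share of matches was perfect for miR-214* (66.6% to 72.1%) than for miR-214 (39.7% to 47.2%) in every library. Counting perfect matches alone thus lowers this ratio in both genotypes.

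The change of the log2 arm ratio of miR-214 was -0.88 ± 0.34 (limma; 95% interval -1.69 to -0.072; unadjusted p = 0.037), the second most negative of 106 hairpins with both arms measured. It did not pass when adjusted over them (limma adjusted p = 0.67). No hairpin did (0.00% called, 6 with an unadjusted p under 0.05), while the genotypes did not overlap for 37.7% of hairpins. With perfect matches the change was -1.01 (limma adjusted p = 0.30). Leaving out a TghuTNF library gave -1.17 (replicate 1) or -0.59 (replicate 2) in all matches, and leaving out a WT library gave -0.57 (replicate 1) or -1.19 (replicate 2). A difference between the arms of Mir214 in their response to genotype is therefore not shown at the threshold.

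**Figure D2:**
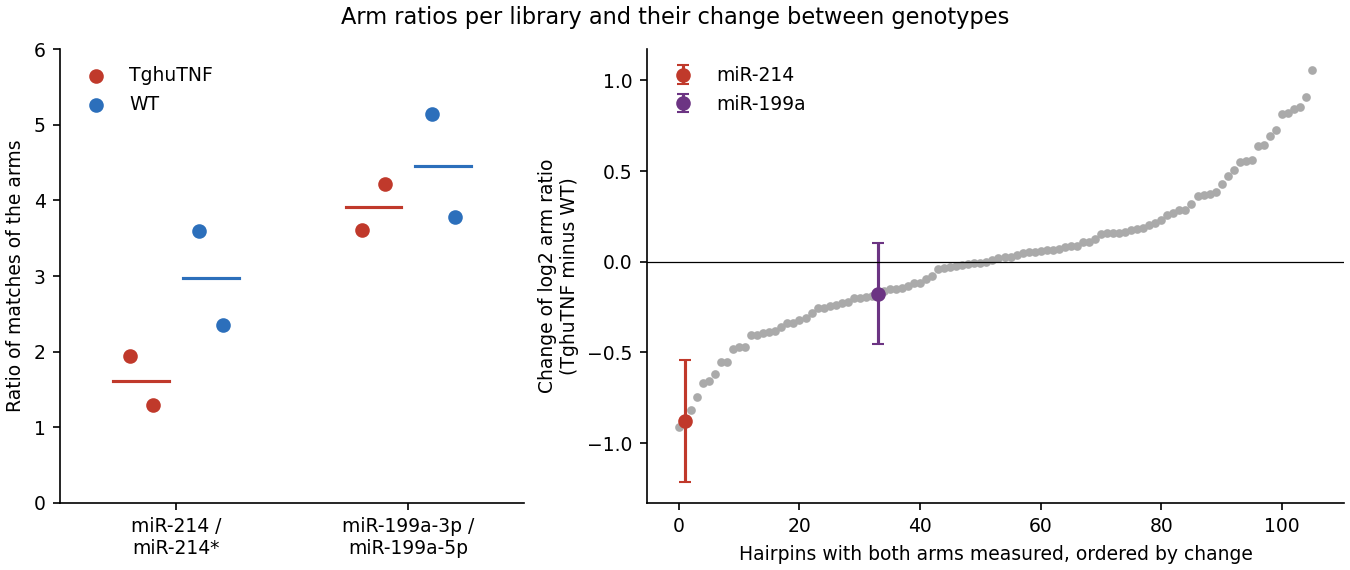
Left, matches of one arm divided by those of the other in each library (points; bars are means of 2) for miR-214 over miR-214* and miR-199a-3p over miR-199a-5p; right, change of the log2 arm ratio (TghuTNF minus WT) of all 106 hairpins in rising order, with SE for the marked pair. The ratio of miR-214 is 1.94 and 1.29 in TghuTNF and 3.60 and 2.35 in WT, and its change of -0.88 sits second from the low end.

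miR-199a-3p was the most abundant member. It had 4748 and 5353 CPM in TghuTNF, against 6188 and 5536 CPM in WT. TghuTNF lay below WT in every library, by a margin smaller than the spread between replicates, and its rank among all miRNAs was 29 and 27 in TghuTNF and 24 and 27 in WT. The log2 fold change was -0.22 ± 0.16 (95% interval -0.56 to 0.13; edgeR adjusted p = 0.38) and did not pass. Groups that do not overlap were found for 60.6% of all tested miRNAs.

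miR-199a-5p had 1316 and 1271 CPM in TghuTNF, against 1202 and 1465 CPM in WT. The TghuTNF values lay inside the range of the WT values. The log2 fold change was -0.045 ± 0.17 (95% interval -0.43 to 0.34; edgeR adjusted p = 0.89). In perfect matches the change was -0.070 ± 0.19 for miR-199a-5p and -0.24 ± 0.16 for miR-199a-3p, and neither passed (edgeR adjusted p = 0.83 and 0.36). The ratio of miR-199a-3p to miR-199a-5p matches was 3.61 and 4.21 in TghuTNF and 5.15 and 3.78 in WT, with overlapping groups (log2 change -0.18 ± 0.28, limma adjusted p = 0.87).

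miR-199a and miR-214 share Dnm3os as a host, but miR-199a also has the Dnm2 locus. There were 11.2 and 12.8 matches of miR-199a-5p per match of miR-214 in TghuTNF, against 4.70 and 9.39 in WT. The same ratio to miR-214* was 21.7 and 16.5 in TghuTNF and 16.9 and 22.1 in WT, with overlapping groups. The ratio to miR-214 did not overlap between genotypes (two-sided exact permutation p = 0.33, the smallest that 2 against 2 libraries allow). Since miR-199a-5p showed no detectable difference, this ratio restates the lower level of miR-214 and is not a separate result.

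The row of miR-199b*, the 5p arm of Mir199b, could not be separated from miR-199a-5p when all matches were counted. It held 35164 and 25723 matches in TghuTNF and 19087 and 38636 in WT, close to the counts of miR-199a-5p, but only 2.01% and 1.80% of these were perfect in TghuTNF and 3.87% and 2.90% in WT. Its 1-mismatch matches were 1.003 to 1.01 times the perfect matches of miR-199a-5p in every library, and the sequences printed above differ by 1 base. The totals of both rows are therefore not independent, and the change in all matches (-0.095 ± 0.18; edgeR adjusted p = 0.76) cannot be read as that of miR-199b* alone.

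**Figure D3:**
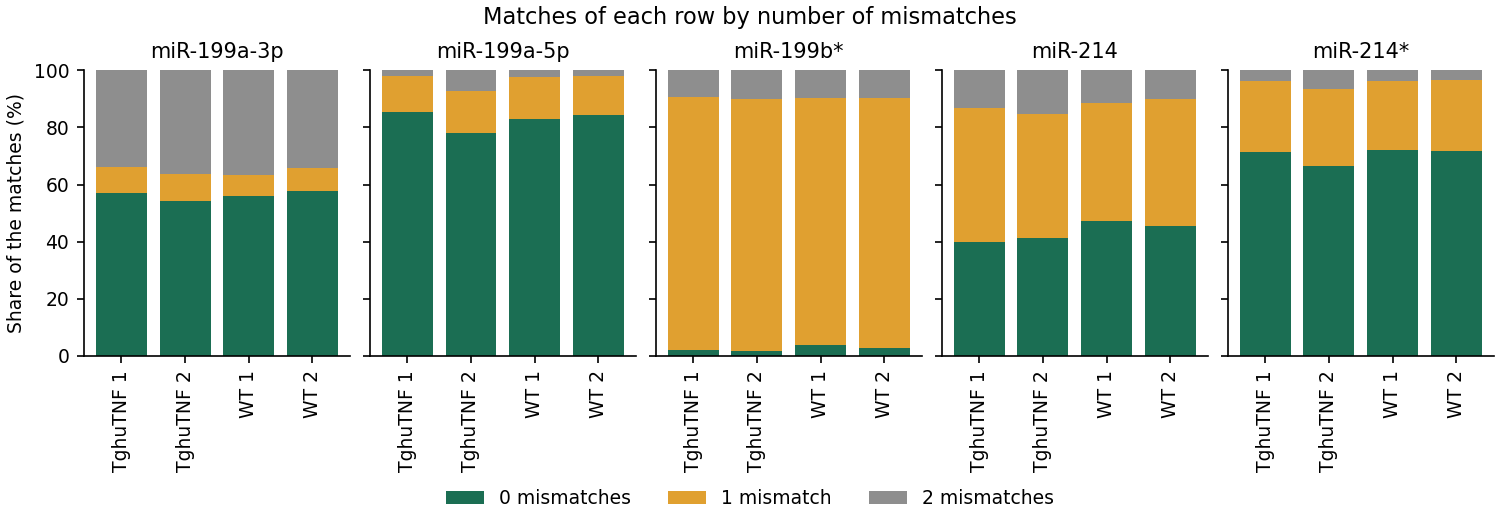
Share of the matches of each member with 0, 1 and 2 mismatches in each library (percent, stacked; the TghuTNF libraries are on the left of each panel). Under 4% of the matches of miR-199b* are perfect, miR-199a-3p has 34.0% to 36.6% with 2 mismatches, and 39.7% to 47.2% of the matches of miR-214 are perfect.

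The perfect matches of miR-199b* were fewer in TghuTNF fibroblasts. They numbered 707 and 464 in TghuTNF and 739 and 1119 in WT, which gave 36.3 and 30.6 CPM of perfect matches in TghuTNF, against 64.1 and 59.9 CPM in WT. Both TghuTNF libraries lay below both WT libraries, with a gap wider than the spread within either genotype; 60.3% of the miRNAs tested in perfect matches had groups that did not overlap. The log2 fold change was -0.89 ± 0.24, 1.85-fold lower (33.5 ± 4.00 CPM in TghuTNF and 62.0 ± 3.00 CPM in WT; SD, n = 2 each; edgeR adjusted p = 0.038). With miR-214, 2 of the 5 members were lower in perfect matches and 0 were higher, where 13.2% of the 380 tested miRNAs were called, 8.16% lower and 5.00% higher. The call ended without TghuTNF replicate 2 (edgeR adjusted p = 0.052), WT replicate 1 (0.29) or WT replicate 2 (0.18), with changes of -0.75 to -0.94 in these fits.

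Within the pair that differs by C10U the comparison needs no scaling between libraries. miR-199b* made up 2.23% of the perfect matches of miR-199a-5p and miR-199b* in TghuTNF replicate 1, with an exact (Clopper-Pearson) 95% interval from 2.07% to 2.40%. In TghuTNF replicate 2 it made up 2.03% (1.85% to 2.22%). The share was 4.32% in WT replicate 1 (4.02% to 4.63%) and 3.22% in WT replicate 2 (3.04% to 3.41%). It was lower in both TghuTNF libraries, beyond counting error, and an exact permutation test over the libraries gave p = 0.33, the smallest possible. The odds of a perfect match for miR-199b*, which nearly restate this share, did not pass (limma adjusted p = 0.82). Misread bases of the far more abundant miR-199a-5p can also land on miR-199b*. Spread evenly over the 69 possible single substitutions, the remaining 1-mismatch matches of miR-199a-5p came to 56.1 and 53.7 per substitution in TghuTNF and 31.1 and 62.0 in WT, which is 7.93% and 11.6% of the perfect miR-199b* matches in TghuTNF and 4.21% and 5.54% in WT. The true rate at that 1 base was not tested.

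**Figure D4:**
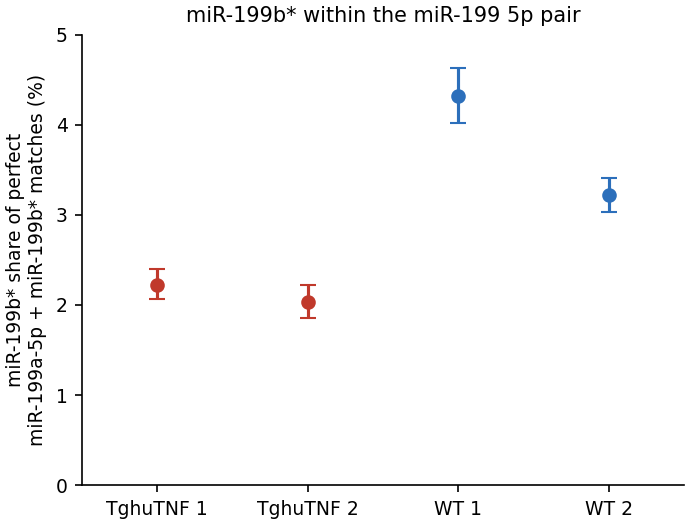
Share of miR-199b* in the perfect matches of miR-199a-5p and miR-199b* together in each library (percent; bars are exact 95% binomial intervals, which cover counting error only). The TghuTNF libraries stand at 2.23% and 2.03%, below the WT libraries at 4.32% and 3.22%.

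The make-up of the matches by mismatch class was compared for all 442 miRNAs. The log2 odds of a perfect match changed by -0.84 ± 0.25 for miR-199b* and -0.34 ± 0.23 for miR-214, against a median of -0.19 over all miRNAs. No member passed (limma adjusted p = 0.82 for both). For miR-199b* the odds mostly restate its share beside miR-199a-5p, because its 1-mismatch matches nearly equal the perfect matches of miR-199a-5p. They are not a separate result for that row. No miRNA passed at all (0.00% called, 19 with an unadjusted p under 0.05). miR-214 had 39.7% and 41.3% perfect matches in TghuTNF and 47.2% and 45.5% in WT, and 47.2% and 43.3% with 1 mismatch in TghuTNF and 41.4% and 44.4% in WT. In miR-199a-3p, reads with 2 mismatches outnumbered those with 1 in every library, at 34.0% and 36.4% of matches in TghuTNF and 36.6% and 34.1% in WT. What the mismatched reads of miR-214 and miR-199a-3p are was not tested.

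By level the members fell in the order miR-199a-3p, miR-199a-5p, miR-214 and miR-214* in every library when all matches were counted. In perfect matches miR-214 and miR-214* could not be ordered in TghuTNF, where miR-214* had 61.1 and 76.2 CPM. In WT miR-214 lay above the 73.0 and 69.3 CPM of miR-214* in both libraries. A smaller share of the miR-214 matches was perfect in every library, which lowers miR-214 against miR-214* in this count. miR-199b* was the scarcest in perfect matches in every library. The miR-199a and miR-214 rows together took 0.630% and 0.667% of all matches in TghuTNF and 0.760% and 0.741% in WT, most of it miR-199a-3p. At these depths a count of 0 would allow 0.110 to 0.180 CPM, far below every member.

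**Figure D5:**
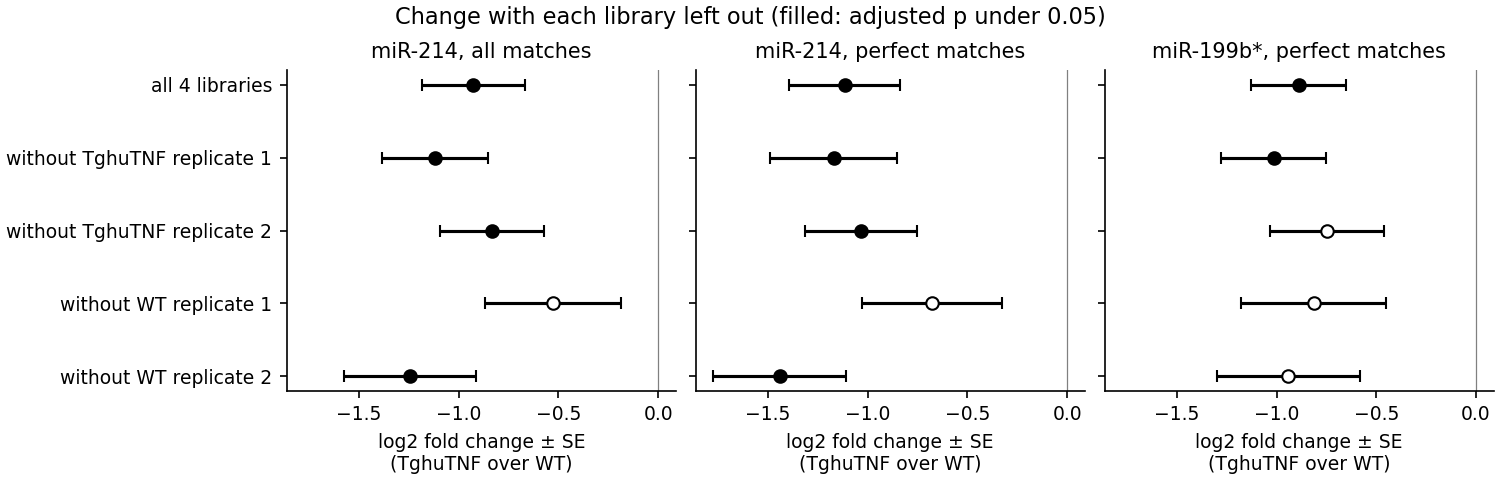
log2 fold change (TghuTNF over WT) ± SE with all 4 libraries and with each library left out, for miR-214 in all matches and in perfect matches and for miR-199b* in perfect matches; filled points have an edgeR adjusted p under 0.05. All 15 values are negative, and the smallest for miR-214, -0.53 and -0.68, are those without WT replicate 1.

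The miRNAs most like a member over the 4 libraries were found by the distance between centred log2 CPM profiles. Nearest to miR-214 were miR-466g (distance 0.34), miR-455* (0.35) and miR-466h (0.36). Of these, miR-466g (-1.08 ± 0.31) and miR-455* (-1.17 ± 0.27) passed as lower in TghuTNF (edgeR adjusted p = 0.042 and 0.016). Neighbours were picked by their profiles in these same libraries, so a shared direction follows from the choice. Over the libraries miR-466g had only 2.31 to 5.78 CPM and miR-466h 2.62 to 5.17 CPM. For miR-214* the nearest were miR-345-5p, miR-425* and miR-29a (0.060 to 0.11), for miR-199a-5p miR-100 (0.079), and for miR-199a-3p miR-30e* (0.079).

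Of 18 other miRNAs typical of mesenchymal cells or linked to fibrosis, 17 were tested, of which 3 were higher, 2 lower and 12 did not pass (median log2 fold change -0.026, against 0.0056 over all miRNAs; 13.3% of all miRNAs were called). Higher were miR-22 (1.02 ± 0.19), miR-140 (0.91 ± 0.23) and miR-140* (0.81 ± 0.18). Lower were miR-455 (-1.88 ± 0.33) and miR-455*, products of an intron of the collagen gene Col27a1. The abundant fibroblast miRNAs miR-21 (0.12 ± 0.14), miR-143 (-0.11 ± 0.14), miR-34c (-0.026 ± 0.15) and miR-24 (-0.066 ± 0.17) did not pass.

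Markers of other cell types differed in the same direction as miR-214 in part. The summed level of the endothelial arms of miR-126 was 65.4 to 69.4 CPM in TghuTNF and 110 to 125 CPM in WT (miR-126-3p of 2 called lower). The 7 epithelial miRNAs summed to 30.1 to 37.1 CPM in TghuTNF and 66.7 to 72.7 CPM in WT, but of the 4 tested only miR-203 was called lower (-1.43 ± 0.24). miR-200b (0.44 ± 0.30), miR-200c (0.30 ± 0.29) and miR-141 (0.46 ± 0.57) did not pass, and the median of the tested epithelial miRNAs was 0.37. The summed level of 6 muscle miRNAs was 1750 to 2074 CPM in TghuTNF and 2390 to 3086 CPM in WT (0 of 5 tested called). The most abundant of these, miR-206 (-0.53 ± 0.18) and miR-1 (-0.43 ± 0.19), did not pass (edgeR adjusted p = 0.077 and 0.17). The median of the tested muscle miRNAs was -0.53, but the scarce miR-499 went the other way (1.20 ± 0.48). Its mean was 1.28 CPM in TghuTNF and 0.532 CPM in WT. The 6 blood cell miRNAs summed to 21.2 to 29.1 CPM in TghuTNF and 6.63 to 15.9 CPM in WT (miR-223 of 3 tested called higher). The 4 neural miRNAs (miR-138 of 3 tested called higher) summed to 77.1 to 89.5 CPM in TghuTNF and 67.3 to 76.9 CPM in WT. The 2 cartilage miRNAs, miR-140 and miR-140* (both called higher), summed to 18670 to 25531 CPM in TghuTNF and 12065 to 13400 CPM in WT. At 0 were miR-144 in both TghuTNF libraries, miR-124 in both WT libraries, miR-208b in all but TghuTNF replicate 2, miR-200a in WT replicate 1 and miR-429 in WT replicate 2. These sums use library size only, and their part in the values of miR-214 and miR-199b* was not tested.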

How the data were processed

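Small RNA fractions of 4 cultures were sequenced, and 1 table per library was used. Per the file headers, the authors matched reads of length 37 to 707 mouse miRNAs with mimap version 3d, a hash length of 9 and up to 2 mismatches. The deposited values are raw counts of matches per miRNA, with parts for 0, 1 and 2 mismatches. By the near-equal counts of miR-199b* and miR-199a-5p, 1 read appears to count for several near-identical miRNAs. The sources used here do not say how such reads were assigned. How adaptors were trimmed, and which miRBase release and genome build were used, is not given in the sources used here.

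Counts were filtered with filterByExpr, scaled with TMM and tested between genotypes by edgeR 4.0.16 (quasi-likelihood, R 4.3.3), two-sided, with Benjamini-Hochberg adjustment over all tested miRNAs and a threshold of 0.05, once on all matches (442 miRNAs) and once on perfect matches (380). SE is the log2 fold change divided by the root of the F statistic. Arm ratios (guide over star arm, or 3p over 5p, pseudocount 0.5) of 106 hairpins and odds of a perfect match were compared with limma 3.58.1. Alternatives were other scalings, DESeq2 1.42.0, limma-voom, other filters, other mismatch limits, each library left out and a replicate block. The tests were checked on simulated data. The p-values reflect only how much these 4 cultures vary, and binomial intervals and floors (3 counts) cover counting error only, since reads carry no molecular identifiers.

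The rule for named miRNAs takes all members, the 3 nearest profiles to each, seed mates, and from each list the called and the most abundant miRNAs. Members and lists were chosen with earlier results of these data known. Sequences and hairpin positions are from RefSeq (GRCm38.p6), and the overlapping genes and exons from GENCODE M21 (GRCm38).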

Additional observations from a re-analysis of the deposited data

How the results depend on the processing

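miR-214 stayed lower under all 13 alternatives in all matches (log2 fold change -0.53 to -1.24) and all 9 in perfect matches, but its call ended under 5 of the 13 and 1 of the 9; miR-199b* in perfect matches stayed lower under all 9 and lost its call in 3. miR-199a-3p stayed lower and uncalled under these alternatives, from -0.13 without WT replicate 1 to -0.33 in all matches and from -0.16 without TghuTNF replicate 1 to -0.51 with upper-quartile scaling (edgeR adjusted p = 0.064) in perfect matches. Upper-quartile scaling moved the median of all miRNAs to -0.10 in all matches and -0.28 in perfect matches, and turned the perfect-match calls to 13 higher and 48 lower, against 19 and 31 with TMM. The uncalled value of miR-214* (0.0011) turned to -0.015 with library size only, -0.12 with upper-quartile factors, -0.0093 with limma-voom, -0.0083 without a filter and -0.051 in perfect matches, and there to 0.0043 without a filter. With each library left out, miR-214* ranged from -0.21 to 0.088 in all matches and -0.19 to 0.10 in perfect matches, miR-199a-5p from -0.18 to 0.10 and -0.21 to 0.11, miR-199b* in all matches from -0.26 to 0.053 and the miR-199a arm ratio from -0.40 to 0.045. The odds of a perfect match then ranged from -0.51 to 0.20 for miR-199a-5p and from -0.17 to 0.0085 for miR-199a-3p. The 59 calls in all matches became 93 without a filter and 14 when the mean had to reach 100 CPM, where fewer miRNAs were tested, and 49 to 153 with a library left out; the 50 calls in perfect matches became 21 to 93. Calls of arm ratios were 0 to 1 and of perfect-match odds 0 to 1 with a library left out, and the odds had 2 calls with a pseudocount of 5. Fits without a library leave 1 in a genotype, which is assumed to vary like the others; the cause of these shifts was not tested.

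The replicate numbers do not pair the cultures by any label, and differences between replicates 1 and 2 correlated across 442 miRNAs at -0.088 between genotypes. With a replicate block 87 miRNAs were called in all matches and 61 in perfect matches, 3 for perfect-match odds, and miR-214* stood at -0.0081; miR-214 (-0.89) and, in perfect matches, miR-199b* (-0.89) kept their calls.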
